A study of Mus musculus with 20 samples.

Results

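The question addressed here was whether vincristine changed testis RNA differently in mice carrying a human leukaemia than in mice without one. The comparison is an interaction: the response to the drug in engrafted mice with low leukaemia infiltration (Low-VCR against ALL) minus the response in the other mice (VCR against NC). It used 16 of the 20 libraries of the series, 4 per group, and all 16534 genes that passed a low-count filter. All mice were male NSG mice (NOD scid gamma), an immunodeficient strain that accepts human cells, 6 weeks old at the start. NC mice were normal controls. ALL mice carried patient-derived B-cell acute lymphoblastic leukaemia (B-ALL), set up by tail-vein injection of 400000 xenograft-derived cells, and were given no vincristine. VCR mice received vincristine sulfate into the peritoneum at 0.5 mg/kg once a week for 3 weeks from day 69, and their labels name no injected cells. Low-VCR mice carried B-ALL, received the same drug schedule, and had low infiltration of the peripheral blood. Control groups were given saline. Mice were sorted into groups by leukaemia infiltration, and the infiltration of the ALL mice is not given in the sources used here. A difference between Low-VCR and ALL that comes from that sorting cannot be told apart from the drug response.

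Vincristine binds tubulin and blocks the mitotic spindle, so dividing cells are its main target. In the testis, spermatogonia divide by mitosis, spermatocytes pass through meiosis, and round spermatids then make the acrosome, the flagellum and many proteins found in no other cell. Sertoli, Leydig, peritubular, endothelial and immune cells make up the rest of the organ, and their RNA takes a larger share of a library when germ-cell RNA is lost. In bulk RNA, fewer cells of a type and less RNA per cell cannot be told apart, and this holds for every result below.

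The 16 libraries held between 9.43 and 15 M (mega) counts, and those of Low-VCR between 13 and 13.9 M. The first principal component of log2 CPM (counts scaled to library size) took 70.6% of the variance over the 16 libraries. It placed the 8 undrugged libraries between -104 and -87.2, Low-VCR between 20.3 and 57.1 and VCR between 83.9 and 263.6, with VCR 1 farthest out. The biological coefficient of variation was 46.9% in VCR, 26% in Low-VCR, 13.9% in NC and 9.33% in ALL. Mitochondrially encoded genes took 8.26% ± 2.6 (SD, n = 4) of the counts in VCR and 6.07% ± 1.53 (SD, n = 4) in Low-VCR, against 2.23% ± 0.314 (SD, n = 4) in NC and 1.95% ± 0.136 (SD, n = 4) in ALL. Library numbers run from 1 to 8 in NC and VCR and from 26 upwards in the engrafted groups, so engraftment and number range cannot be told apart. The part of these differences in the results below was not tested.

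Most genes that changed with the drug had the same direction of change in both responses. Each log2 difference below carries its standard error after the ± sign (edgeR's quasi-likelihood test, 4 libraries a group). A gene counts as called when its adjusted p, by Benjamini and Hochberg's method over the whole table, is under 0.05. Between VCR and NC 12851 genes were called (77.7% of those tested), and between Low-VCR and ALL 8527 (51.6%). Between ALL and NC edgeR called 0 genes, with 748 at an unadjusted p under 0.05, and DESeq2 called 19. Of 9407 genes called and changed at least 2-fold between VCR and NC, 99.1% had the same sign between Low-VCR and ALL. Over all genes tested, the Low-VCR response had a slope of 0.54 on the VCR response, with Pearson's r of 0.88 and Spearman's rho of 0.94 across genes, which are not independent replicates. No library enters both responses. Genes that had risen at least 2-fold (5008) had a median log2 change of 1.93 in VCR and 1.42 in Low-VCR. Genes that had fallen at least 2-fold (4399) had a median of -2.01 in VCR and -0.88 in Low-VCR. The median ratio of the Low-VCR change to the VCR change was 0.74 for genes that rose and 0.43 for genes that fell. These genes were chosen on the VCR side, in the group with the widest spread, and such a choice lowers the ratio. With genes chosen instead by a called 2-fold change between Low-VCR and ALL, a choice that raises it and was added after the data were seen, the ratio was 0.79 for 3874 genes that rose and 0.5 for 870 that fell.

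The interaction was called for 839 genes (5.07% of those tested). It was above 0 for 630 (3.81%) and below 0 for 209 (1.26%). Each of the 839 had an interaction opposite in sign to its VCR change, so in this edgeR fit the response of the called genes was smaller or turned over in Low-VCR. In other fits a few calls had the sign of the VCR change: the interaction was opposite for 1858 of 1868 DESeq2 calls, for 1749 of 1757 calls of voom with quality weights and for 1288 of 1291 edgeR calls without VCR 1. The VCR change is part of the interaction, and 85.1% of all genes tested had opposite signs too. Of the 630 genes above 0, 611 had a smaller fall in Low-VCR, and 19 lay below NC in VCR but above ALL in Low-VCR. Of the 209 genes below 0, 187 had a smaller rise, and 22 lay above NC in VCR but below ALL in Low-VCR. The genes above 0 had a median log2 change of -3.12 in VCR and -0.94 in Low-VCR. The genes below 0 had medians of 2.41 and 1.05. Directly between the drugged groups, 620 of the 630 were also called higher in Low-VCR than in VCR and 187 of the 209 called lower, against a background of 16.7% and 13.6% of genes tested. Low-VCR minus VCR is part of the interaction that chose these genes, so the counts are a description. In High-VCR, engrafted and drugged mice with high infiltration that play no part in the interaction, 432 of the 630 were called lower than in Low-VCR, and 48.8% of the 209 called higher, against 4.69% and 3.13% of genes tested. Those comparisons use the same Low-VCR libraries, which also took part in choosing the genes. Values of Low-VCR and VCR did not overlap for 502 of the 630 and 168 of the 209, against 25.2% of genes tested, and this too describes what the choice used.

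**Figure D1:**
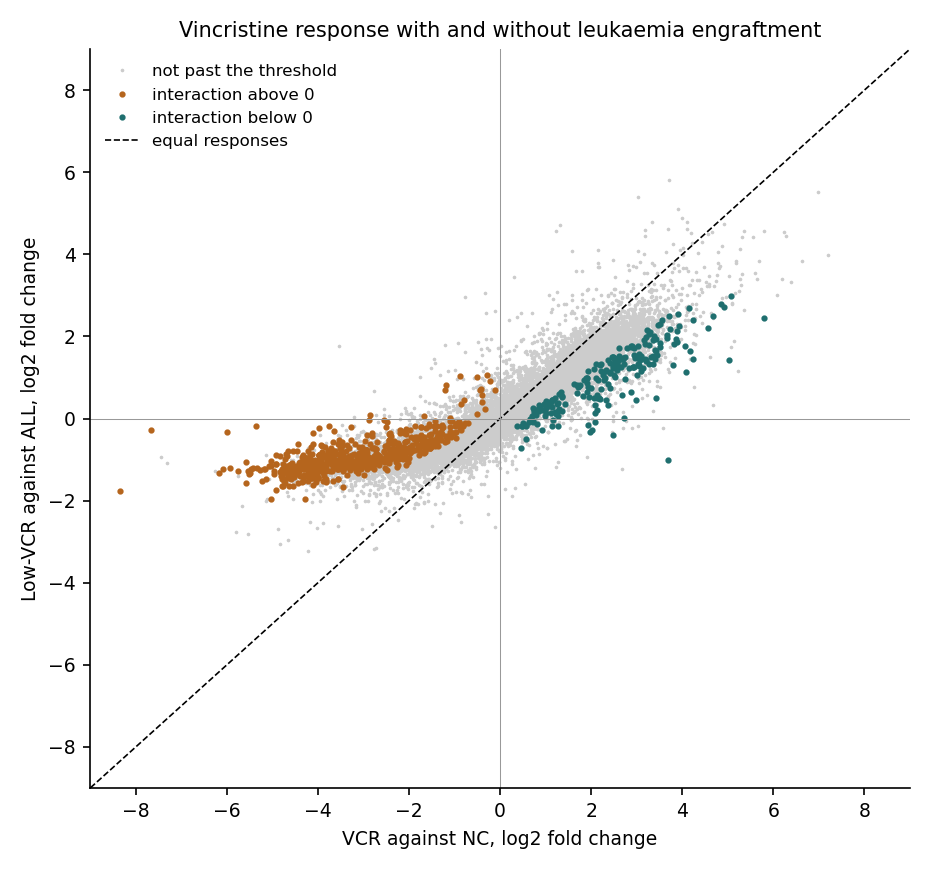
Log2 fold change of each gene between VCR and NC (x axis) and between Low-VCR and ALL (y axis) for the 16460 genes with counts in all 4 groups. Coloured points are genes with a called interaction, and the dashed line marks equal responses. The brown points of genes that fell lie above the line and the teal points of genes that rose lie below it.

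ALL libraries entered every interaction, and for the genes below 0 they took part in its size. All 209 had an ALL level above NC in the fit (median log2 difference 0.37), against 57.8% of genes tested whose ALL difference ran opposite to the interaction. For 33 of the 209 that difference was larger than the one between Low-VCR and VCR. For the genes above 0 the median difference between ALL and NC was -0.11, and 10 of 630 had one larger than that between Low-VCR and VCR.

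Most calls lay close to the threshold. Of the 839 genes, 760 had an edgeR adjusted p from 0.03 to 0.05, and the number called depended on single libraries. Leaving out ALL 2 or Low-VCR 1 left 7 calls, ALL 3 left 8, Low-VCR 3 left 10, ALL 4 left 11, NC 1 left 18, NC 3 left 22, ALL 1 left 53, VCR 2 left 80, NC 4 left 138 and NC 2 left 179. Leaving out VCR 1, the library farthest from the rest, raised the count to 1291, VCR 4 to 1052, Low-VCR 4 to 1407 and VCR 3 to 2322. Without Low-VCR 2 there were 706. In each of these 16 fits all 839 genes kept the sign of their interaction.

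**Figure D2:**
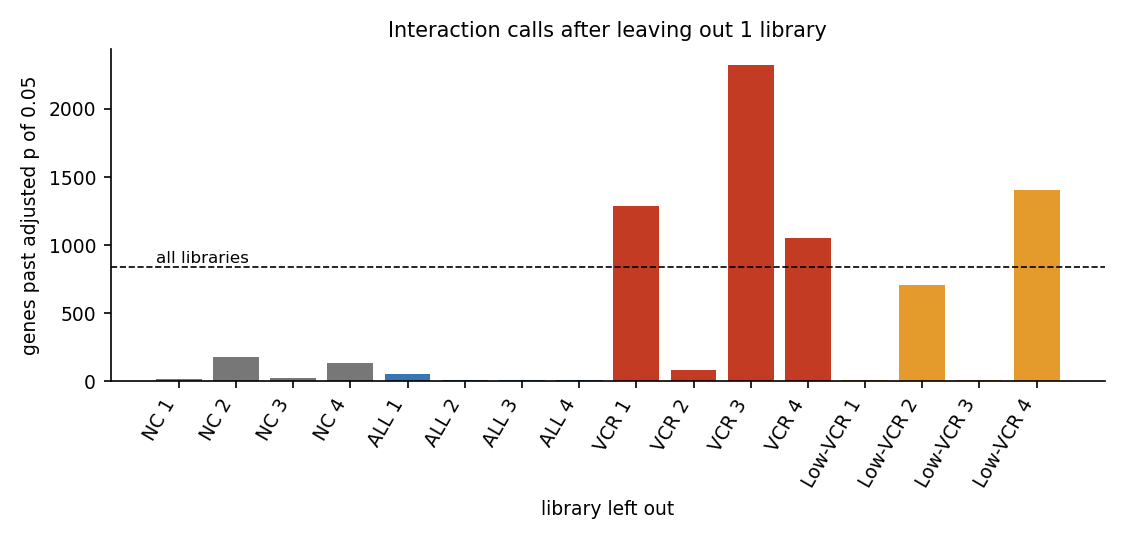
Number of genes with a called interaction (y axis) after leaving out the library named on the x axis. The dashed line marks the 839 calls of the fit to all libraries. Bars run from 7 to 2322 genes.

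A set of 6 genes kept its call in all 16 leave-one-out fits: Ica1, Mas1, Serpinb9b, Azi2 and Btbd35f15 above 0 and Serpina3n below 0. They were picked from the fits after their values were seen. Each other called gene named below lost its call in at least 1 of the 16 fits.

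Ica1 encodes a BAR-domain protein of vesicle traffic, first known as an islet cell autoantigen. Its level was 71.6, 64.5, 72.9 and 68.3 CPM in NC and 67.8, 59.1, 59.1 and 58.8 CPM in ALL. In VCR it was 4.95, 9.11, 13.9 and 11.4 CPM, and in Low-VCR 40.7, 37.9, 39.5 and 29.8 CPM. The lowest Low-VCR library lay above the highest VCR library, so the drugged groups did not overlap. Ica1 fell by 2.81 on the log2 scale in VCR and by 0.73 in Low-VCR. Its interaction was 2.09 ± 0.3 (edgeR adjusted p = 0.0144), a 4.25-fold difference between the responses.

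Mas1, the receptor for angiotensin-(1-7), was at 6.03 to 7.37 CPM in NC and 5.86 to 6.64 CPM in ALL. It was at 0.0762, 0.38, 0.525 and 0.456 CPM in VCR and at 2.83, 1.84, 3.41 and 1.67 CPM in Low-VCR. All Low-VCR libraries lay above all VCR libraries and below all undrugged ones. Its interaction was 2.83 ± 0.43 (edgeR adjusted p = 0.0144).

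Serpinb9b belongs to the clade B serine protease inhibitors, several of which block granzymes. It was at 9.69 to 11.3 CPM in NC, 6.73 to 9.08 in ALL, 0.533 to 1.52 in VCR and 3.27 to 6.42 in Low-VCR. Its interaction was 2.26 ± 0.35 (edgeR adjusted p = 0.0144). Reads of the near-identical Serpinb9 copies may be divided by the counting.

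Azi2, an adaptor that binds the kinase TBK1 in interferon signalling, had the tightest VCR values of the set. It was at 22.8, 22.3, 20.6 and 23.5 CPM in VCR and 46.1, 37.8, 38.9 and 31.4 CPM in Low-VCR, against 51.9 to 62.2 in NC and 49.3 to 53 in ALL. Its interaction was 0.97 ± 0.15 (edgeR adjusted p = 0.0167). This is a 1.96-fold difference, so a small one kept its call where the replicates were close.

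Btbd35f15, one of a family of near-identical X-linked BTB-domain genes, had 249 counts in NC, 171 in ALL, 1 in VCR and 211 in Low-VCR, summed over 4 libraries each. The VCR libraries were thus almost empty, while Low-VCR stood at 2.84 to 5.04 CPM and ALL at 1.52 to 6.53 CPM. The ratio of the responses was 277, with an exact 95% Poisson interval of the single VCR count from 49.7 to 10900, which covers counting error only. Its edgeR adjusted p was 0.000887, the smallest of all genes tested.

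Serpina3n, a secreted protease inhibitor and acute-phase protein that marks reactive tissue, was the member of the set below 0. It was at 0.487, 1.51, 1.45 and 1.43 CPM in NC and at 5.22, 6.07, 7.03 and 2.54 CPM in ALL. It was at 97.4, 76.9, 47.5 and 56.9 CPM in VCR and at 28.4, 24.1, 30.8 and 32.3 CPM in Low-VCR. Drugged and undrugged groups were wide apart, all Low-VCR libraries lay below all VCR libraries, and ALL lay above NC. Serpina3n rose by 5.8 ± 0.4 in VCR and 2.46 ± 0.33 in Low-VCR, and its interaction was -3.33 ± 0.49 (edgeR adjusted p = 0.0144). Part of that size came from the undrugged side: Low-VCR differed from VCR by -1.27 (edgeR adjusted p = 0.00806).

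**Figure D3:**
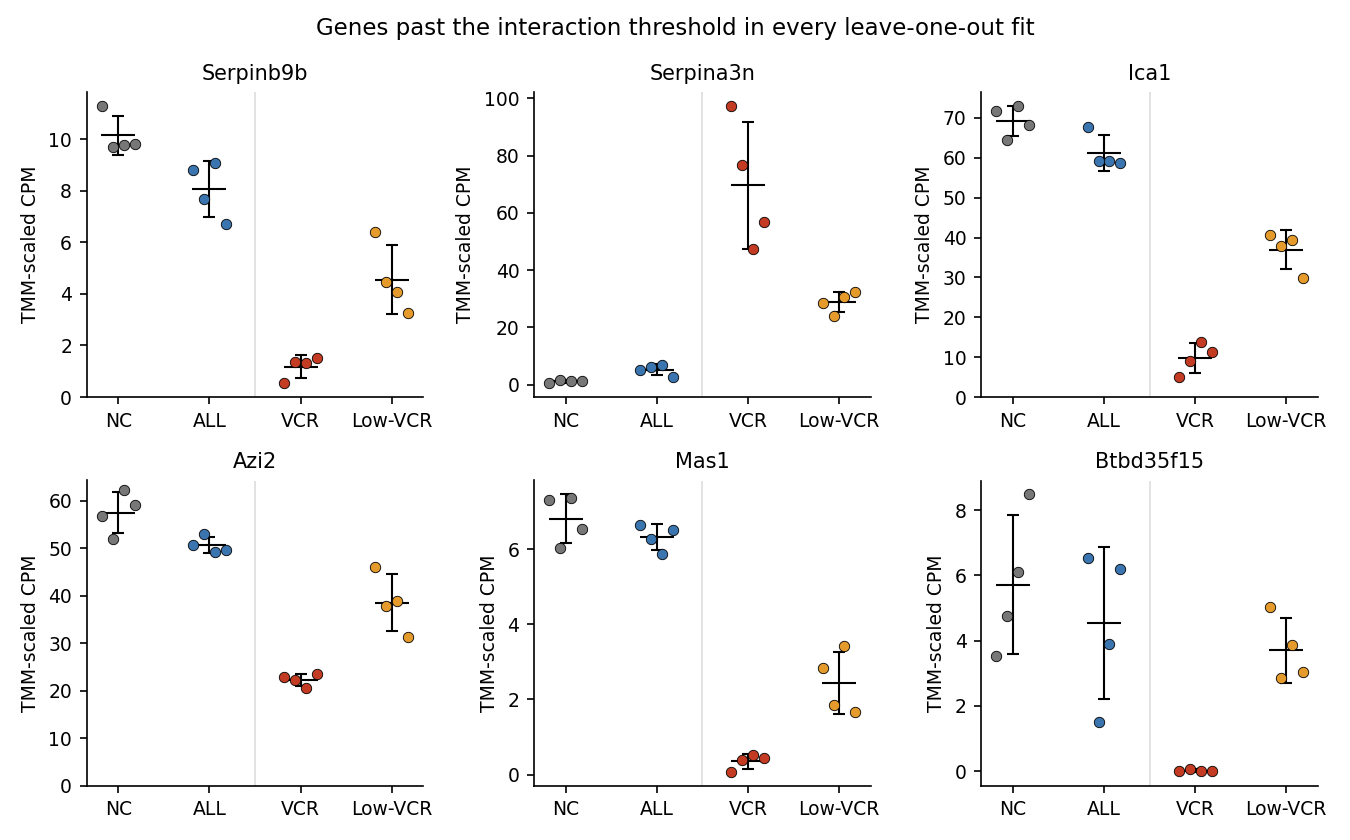
TMM-scaled CPM of the 6 genes called in every leave-one-out fit, by group. Points are libraries, bars the mean and SD (n = 4). In each panel the Low-VCR points lie between the VCR points and the undrugged points or overlap the latter, and none overlaps VCR.

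Among promoters looked up, those of Serpinb9b, Azi2, Mas1, Tssk4, Tmem95, Catsper3 and Ccdc159 and another listed start of Ica1 held no searched motif. Those with a match, from a gene of each direction and a sperm-egg fusion gene described below, are shown before the motif counts. They are RefSeq windows from 250 bases before to 50 after a gene's start, build GRCm38.p6, 5′ to 3′ in the gene's direction, with matches to a searched motif in capitals. Ica1, first of its listed starts, chr6:8778435-8778734, minus strand, with the E-box CACGTG:
Ica1: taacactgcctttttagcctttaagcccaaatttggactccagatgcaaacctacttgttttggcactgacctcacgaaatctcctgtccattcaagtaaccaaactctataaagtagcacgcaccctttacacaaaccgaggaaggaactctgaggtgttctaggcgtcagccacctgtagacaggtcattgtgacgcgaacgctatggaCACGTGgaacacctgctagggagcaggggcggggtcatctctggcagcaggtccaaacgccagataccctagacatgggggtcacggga
Serpina3n, chr12:104406458-104406757, plus strand, with the RFX motif GTTGCC read on the other strand:
Serpina3n: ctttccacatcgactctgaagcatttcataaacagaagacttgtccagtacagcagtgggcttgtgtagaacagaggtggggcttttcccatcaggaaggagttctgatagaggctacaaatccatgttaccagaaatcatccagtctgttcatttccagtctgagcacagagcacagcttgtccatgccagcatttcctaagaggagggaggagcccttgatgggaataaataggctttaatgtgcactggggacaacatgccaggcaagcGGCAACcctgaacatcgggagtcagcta
Izumo1, chr7:45621561-45621860, plus strand, with the cAMP response element TGACGTCA, the site bound by the spermatid factor CREM:
Izumo1: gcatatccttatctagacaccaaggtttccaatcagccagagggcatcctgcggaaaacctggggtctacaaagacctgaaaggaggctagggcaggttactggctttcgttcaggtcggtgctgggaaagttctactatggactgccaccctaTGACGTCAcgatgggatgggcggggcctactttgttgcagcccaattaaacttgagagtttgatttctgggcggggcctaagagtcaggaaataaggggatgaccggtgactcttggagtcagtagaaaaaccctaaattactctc
Motifs were searched on both strands in the 461 genes called above 0, 160 below 0 and 12787 tested that had a promoter in the table. TGACGTCA was in 3.04% of the genes above 0, 2.5% below 0 and 3.13% of all tested. GTTGCC, part of the X-box bound by RFX factors, was in 21%, 16.9% and 15.1%. CACGTG was in 9.54%, 10% and 10.7%. The STAT site TTCCNGGAA was in 2.82%, 1.25% and 1.51%, the interferon response element in 2.82%, 4.38% and 3.64%, and the NF-kappa B site in 0.651%, 0% and 0.532%. These shares describe letters in a window and were not tested.

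Of the germ-cell lists, round spermatid genes had the most calls above 0. Of 24 tested genes 7 were called, all above 0, against 3.81% of genes tested: Tmem95, Izumo1 and Spaca3, which serve sperm-egg binding and fusion, Catsper1, Catsper3 and Catsper4, subunits of the sperm calcium channel, and Sun5, which anchors the sperm head to the tail. The list's median interaction was 1.84, against 0.04 over all genes tested. All 24 had fallen in VCR (median log2 change -2.82), against 35.6% of genes tested. Between Low-VCR and ALL 7 were called lower (median -1.15), against 15.2%, and 14 were called higher in Low-VCR than in VCR, against 16.7%.

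Tmem95, a membrane protein needed for fertilisation, was at 13.3 to 15.7 CPM in NC and 10.2 to 12.2 CPM in ALL. It was at 0.229, 0.684, 0.59 and 0.685 CPM in VCR and 7.38, 3.3, 8.59 and 1.02 CPM in Low-VCR. The drugged groups did not overlap, but Low-VCR 4 lay close to the VCR libraries. Its interaction was 3.57 ± 0.62 (edgeR adjusted p = 0.0231). Catsper3 was at 84.8 to 100 CPM in the undrugged groups, at 0.99, 6.23, 3.54 and 4.11 CPM in VCR and at 56.8, 15.3, 57.9 and 5.81 CPM in Low-VCR. Here VCR 2 exceeded Low-VCR 4, so the groups overlapped. Its interaction was 3.23 ± 0.76 (edgeR adjusted p = 0.0356).

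Of the testis-specific serine kinases and their substrate, which act in the shaping of the spermatid, 2 of 7 tested genes were called, Tssk4 and Tssk5, both above 0 (3.81% of genes tested). Tssk4, named in the title of the series, was at 121, 106, 99 and 107 CPM in NC and 92, 87.4, 79.5 and 89.5 CPM in ALL. It was listed at 0 in VCR 1 and stood at 5.54, 8 and 3.5 CPM in the other VCR libraries, against 55, 23.9, 63.2 and 9.29 CPM in Low-VCR. Each Low-VCR library lay above each VCR library, with Low-VCR 1 and 3 more than 2-fold above Low-VCR 2 and 4. Tssk4 fell by 4.65 in VCR. Between Low-VCR and ALL its change was -1.2 ± 0.63 (edgeR adjusted p = 0.111). The interaction was 3.45 ± 0.92 (edgeR adjusted p = 0.0447), and the call ended in 12 of the 16 leave-one-out fits. Tssk5 was at 44.3 to 56.8 CPM in NC, 0 to 1.29 in VCR, 37.6 to 39.9 in ALL and 1.81 to 30.6 in Low-VCR, with an interaction of 4.86 ± 1.04 (edgeR adjusted p = 0.0312).

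Ccdc159, the other gene of the title, encodes a coiled-coil protein and did not pass in the edgeR fit to all libraries. It was at 43.1 to 51.4 CPM in NC and 17.5 to 48.7 CPM in ALL. It was at 0, 0.0759, 14 and 5.63 CPM in VCR and 26.6, 38.5, 17.6 and 25.5 CPM in Low-VCR. Groups given the drug did not overlap, yet the VCR libraries ran from 0 to 14 CPM. Its interaction was 3.03 ± 1.14 (edgeR adjusted p = 0.111), and Low-VCR differed from VCR by 2.43 (edgeR adjusted p = 0.0374). Over the alternatives that tested it the interaction ran from 2.62 to 5.65 and the adjusted p from 0.0256 to 0.486. Ccdc159 thus passed in at least 1 of them.

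Lists of meiotic cells and of later spermatids had medians above 0 with fewer calls. In the leptotene and zygotene list 3 of 28 genes were called, all above 0 (median interaction 0.89), against 3.81% of genes tested. They were Rec8, the meiotic cohesin kleisin, Syce2, a central element of the synaptonemal complex, and M1ap, which is needed for meiosis in the male. Rec8 was at 141 ± 13.2 CPM (SD, n = 4) in NC and 119 ± 7.69 CPM (SD, n = 4) in ALL. It was at 3.43 to 16.9 in VCR and 13.8 to 94.7 in Low-VCR, and its interaction was 2.88 ± 0.67 (edgeR adjusted p = 0.0353). Among pachytene to diplotene genes 1 of 22 was called above 0, a share near the 3.81% of genes tested. It was Cdc25c, a phosphatase that opens the way into division, at 1.89 ± 0.42 (edgeR adjusted p = 0.0337). In VCR it stood at 2.9 to 10.1 CPM and in Low-VCR at 14.2 to 27.3 CPM. None of 25 genes of elongating and condensing spermatids was called by edgeR, 10 had an unadjusted p under 0.05, and the median interaction was 1.54. None of 29 flagellum and manchette genes was called by edgeR, 4 had an unadjusted p under 0.05, and the median was 0.99. In undifferentiated spermatogonia 0 of 12 were called by edgeR and 1 had an unadjusted p under 0.05, with a median change of 0.89 in VCR and 0.89 in Low-VCR. Their median interaction was -0.19, with 7 of 12 below 0.

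List scores, the mean log2 CPM of a list's genes in a library, showed how the stages lay within the drugged groups. The round spermatid score was 1.22, 4.46, 5.11 and 4.85 in VCR and 6.8, 6.04, 6.8 and 5.54 in Low-VCR, against 7.6 to 7.78 in the undrugged libraries. The groups did not overlap, VCR 1 lay far below the rest, and within Low-VCR libraries 1 and 3 were above 2 and 4. The pachytene to diplotene score was 6.99, 7.24, 6.77 and 7.27 in Low-VCR and 3.7, 5.65, 7.21 and 6.79 in VCR. Here libraries 2 and 4 were the higher ones of Low-VCR, and VCR 3 and 4 overlapped Low-VCR. Scores of elongating and condensing spermatids were 9.18, 9.52, 9.01 and 9.34 in Low-VCR and 3.8, 7.33, 8.58 and 7.88 in VCR. Libraries 2 and 4 were again above 1 and 3, the opposite of the round spermatid order. Low-VCR 1 and 2 carry library numbers of the lower engrafted range and Low-VCR 3 and 4 of the upper, so each range held a library of either kind.

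**Figure D4:**
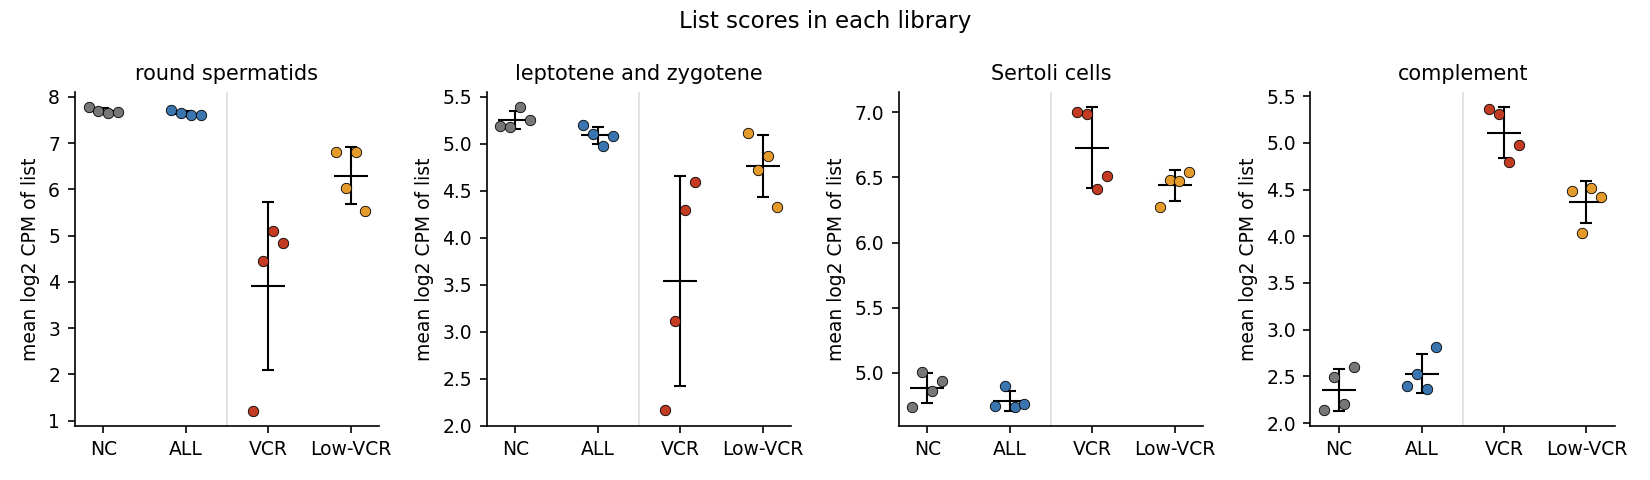
Mean log2 CPM of 4 gene lists in each library (points), with group mean and SD (bars, n = 4). Round spermatid scores of Low-VCR (5.54 to 6.8) lie above those of VCR (1.22 to 5.11), and Sertoli scores of both drugged groups overlap.

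The largest called differences above 0 among genes with a level of at least 5 CPM came mostly from genes almost lost in VCR. Spam1, the sperm surface hyaluronidase, was at 26.4 to 33.5 CPM in NC, 0.0762 to 1.29 in VCR, 24.1 to 28.5 in ALL and 2.11 to 21.5 in Low-VCR. Its interaction was 4.23 ± 0.84 (edgeR adjusted p = 0.0261), and that of Lrriq4 was 4.17 ± 0.81 (edgeR adjusted p = 0.0261). Zscan10, a zinc-finger transcription factor, had 0 to 0.59 CPM in VCR and 0.799 to 6.43 in Low-VCR, with 4.47 ± 1.18 (edgeR adjusted p = 0.0434). The claudin-like Cldn34b2 had 4.52 ± 1.1 (edgeR adjusted p = 0.0364). It was at 4.62, 0.613, 4.92 and 0.145 CPM in Low-VCR and 0 to 0.152 CPM in VCR, on 6 summed VCR counts. Low-VCR 4 lay within the VCR values, so the drugged groups overlapped. Pacs2, a sorting protein of the endoplasmic reticulum, was at 304 to 346 CPM in NC and 300 to 361 in ALL, was listed at 0 in 3 VCR libraries and at 3.8 CPM in VCR 3, and was at 41.9 to 170 in Low-VCR (6.58 ± 1.66, edgeR adjusted p = 0.041). Myt1, a zinc-finger factor of neurons and endocrine cells, had 306 counts in NC, 229 in ALL, 217 in Low-VCR and 0 in VCR. Against a floor of 3 counts summed over the VCR group, the response in Low-VCR relative to ALL was 87.2-fold that in VCR relative to NC. This bound covers the counting of the VCR group only and not the spread between libraries. Low-VCR 4 was also listed at 0.

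Calls below 0 fell in the lists of complement, acute-phase, matrix, Leydig cell and endothelial genes, among others. In the complement list 4 of 20 tested genes were called, all below 0, against 1.26% of genes tested: C3, the central component, C4b, Serping1, the inhibitor of the first component, and the receptor C3ar1. The list's median change was 3.23 in VCR and 1.99 in Low-VCR. C3 was at 14.5 to 29.8 CPM in NC and 23.2 to 41.7 CPM in ALL. It was at 635, 343, 289 and 389 CPM in VCR and 138, 149, 150 and 199 CPM in Low-VCR, without overlap. Its interaction was -1.83 ± 0.44 (edgeR adjusted p = 0.0356). C7, a part of the membrane attack complex, was at 1170, 1030, 480 and 810 CPM in VCR and 308, 345, 302 and 327 CPM in Low-VCR, with -1.88 ± 0.36 (edgeR adjusted p = 0.0261).

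In the acute-phase list 4 of 16 were called, all below 0, against 1.26% of genes tested: Serpina3n, Lcn2, Lrg1 and Lbp. Of the 16, 7 had an interaction above 0, with none of those called. Lcn2, the iron-siderophore binding protein lipocalin 2, reached 3410, 2270, 1340 and 2140 CPM in VCR and 822, 1450, 846 and 1050 CPM in Low-VCR, from 32.5 to 99.9 CPM in NC and 118 to 149 CPM in ALL. Low-VCR 2 lay above VCR 3, so the drugged groups overlapped, and the undrugged groups did not. Its interaction was -2.09 ± 0.52 (edgeR adjusted p = 0.0385). Lrg1, a glycoprotein of vessel growth, had -2.22 ± 0.59 (edgeR adjusted p = 0.0451). Part of that size came from the undrugged side. ALL minus NC was 1.08 ± 0.45 for Lrg1, and Low-VCR minus VCR was -1.14 ± 0.39.

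Leydig cell genes rose in both responses, 15 of 15 in VCR (42.1% of genes tested rose) and 14 of 15 in Low-VCR (36.4%), and 2 had a called interaction, both below 0, against 1.26% of genes tested. Hsd3b1, a steroidogenic dehydrogenase, was at 619, 504, 273 and 441 CPM in VCR and 157, 190, 181 and 207 CPM in Low-VCR. The groups did not overlap, and the undrugged libraries were at 20.8 to 49.1 CPM. Its interaction was -1.74 ± 0.39 (edgeR adjusted p = 0.0329). Nr5a1, the nuclear receptor that drives steroidogenic genes, had -1.13 ± 0.29 (edgeR adjusted p = 0.041). In the extracellular matrix list 4 of 24 were called, all below 0, against the same 1.26%: the basement-membrane genes Col4a1, Col4a2 and Lamc1, and Mmp2, a matrix protease, with -1.96 ± 0.51 (edgeR adjusted p = 0.0425). Of 15 endothelial genes 2 were called below 0, again against 1.26%: Kdr, a receptor for vascular endothelial growth factor, and Plvap, which forms the diaphragms of fenestrae. Plvap had -2.95 ± 0.76 (edgeR adjusted p = 0.0422). Part of that size came from ALL minus NC, 1.21 ± 0.63, which rests on 12 summed counts in NC and 27 in ALL. Kdr was at 33.3 to 63.3 CPM in VCR and 15.7 to 24.2 CPM in Low-VCR, with -1.36 ± 0.32 (edgeR adjusted p = 0.0356).

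Kit and Ccnd2 were called below 0 in the list of differentiating spermatogonia, 2 of 15, against 1.26% of genes tested. Of the 15, 12 had an interaction above 0 (list median 0.46). Kit, the stem cell factor receptor, is made by differentiating spermatogonia and also by Leydig cells. It was at 108, 106, 84.3 and 84.7 CPM in VCR and 49.1, 26.4, 45.8 and 33.7 CPM in Low-VCR, against 10.7 to 16 CPM in the undrugged groups. Its interaction was -1.65 ± 0.34 (edgeR adjusted p = 0.0261). Ccnd2, cyclin D2, had -1.61 ± 0.42 (edgeR adjusted p = 0.0425).

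Further genes with large or well-measured differences below 0 came from other roles. Stk32a, a kinase, was at 6.29 to 12.8 CPM in VCR and 1.45 to 3.52 CPM in Low-VCR. It was at 0 to 0.6 CPM in NC and 0.304 to 1.09 CPM in ALL. Its interaction was -3.6 ± 0.86 (edgeR adjusted p = 0.0357). Part of that size came from the undrugged side, which rests on 12 summed counts in NC and 32 in ALL. Itih3, a heavy chain of the inter-alpha-trypsin inhibitors that bind hyaluronan, was at 21 to 56.5 CPM in VCR and 11.8 to 18.4 CPM in Low-VCR, with -2.38 ± 0.4 (edgeR adjusted p = 0.0209). Laptm5, a lysosomal protein of blood cells, was at 23.9 to 43.4 CPM in VCR and 10 to 16.2 CPM in Low-VCR (-1.92 ± 0.34, edgeR adjusted p = 0.0261). For Itih3 and Laptm5 too, part of the size came from the undrugged side, without overlap of NC and ALL. Itih3 was at 1.26 to 2.19 CPM in NC and 2.94 to 3.92 CPM in ALL. Laptm5 was at 1.83 to 2.91 CPM in NC and 3.61 to 4.03 CPM in ALL. Tmem164 had -2.31 ± 0.52 (edgeR adjusted p = 0.0343), and Loxl2, a collagen cross-linking oxidase, had -2.18 ± 0.53 (edgeR adjusted p = 0.0364).

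**Figure D5:**
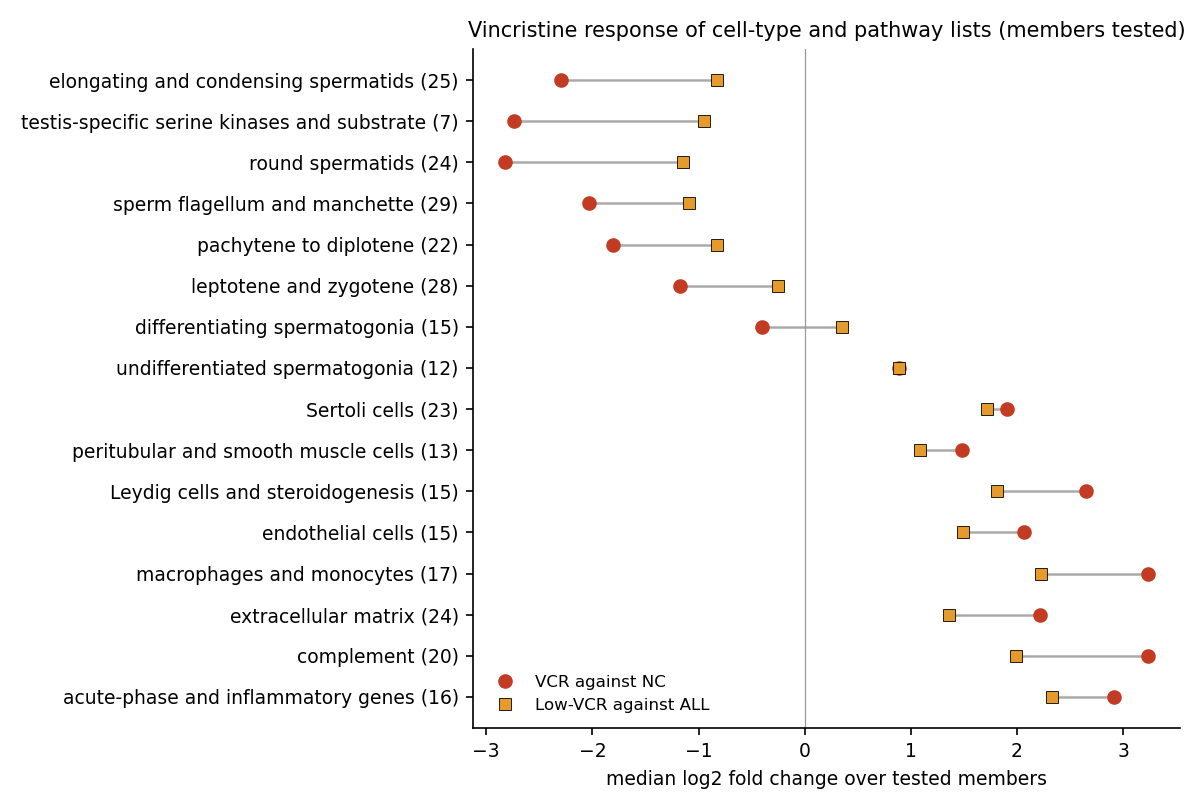
Median log2 fold change of each list in VCR against NC (red circles) and Low-VCR against ALL (orange squares), with the number of genes tested. The squares lie nearer to 0 than the circles in all lists drawn but undifferentiated spermatogonia, where both are at 0.89.

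Macrophage and monocyte genes rose in VCR in 15 of 17 cases and had an interaction below 0 in 16 of 17 (median -0.86). The lysozyme Lyz2 was called below 0 (1.26% of genes tested were), and Aif1, a calcium-binding protein of macrophages and the 1 gene of the list above 0, was called above 0 (3.81%). Aif1 stood at 94.9 ± 8.17 CPM (SD, n = 4) in NC, 8.69 to 33.1 CPM in VCR and 51.6 to 72.4 CPM in Low-VCR, whereas Lyz2 was at 13.2 to 17.5 CPM in NC. The interaction of Aif1 was 1.41 ± 0.38 (edgeR adjusted p = 0.0456). Gbp5 and Isg20 were the 2 of 28 interferon-stimulated genes called, both above 0, a share near the 3.81% of genes tested. They had fallen in VCR, whereas 25 of the 28 had risen, and 21 of the 28 had an interaction below 0 (median -0.38). Gbp5, a guanylate-binding GTPase, went from 222 to 306 CPM in NC to 30.2 to 54.5 in VCR, and from 184 to 212 in ALL to 55.2 to 166 in Low-VCR (1.99 ± 0.39, edgeR adjusted p = 0.0261). The T-cell adhesion gene Cd2 also fell in VCR and had an interaction of 2.31 ± 0.55 (edgeR adjusted p = 0.0356). It was the 1 call among 5 tested T and natural killer cell genes, against 3.81% of genes tested. Of these 5, 3 had an interaction above 0 and 2 below. The list's score was 0.56 to 1.7 in NC, 1.48 to 1.95 in ALL, -1.8 to 0.79 in VCR and 0.25 to 1.72 in Low-VCR. Which cells of this immunodeficient strain made that RNA was not tested. Cd2 rests on few counts, 61 in NC, 45 in ALL, 14 in VCR and 58 in Low-VCR, summed over 4 libraries each. The NF-kappa B list's Nfkbib, Tnfaip2 and Traf1 likewise had falls in VCR and interactions above 0. Of the 20 genes of that list 3 were thus called, against 3.81% of genes tested, while 13 rose and 4 fell in VCR and 11 had an interaction below 0 (median -0.06). In the B lineage list 0 of 9 tested genes were called by edgeR and 1 had an unadjusted p under 0.05. The list's score was 0.66 to 1.55 in Low-VCR, 1.57 to 2.05 in VCR, 0.11 to 0.88 in ALL and -0.22 to 0.57 in NC.

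Sertoli cell genes showed close responses. All 23 rose in VCR (median log2 change 1.91) and all 23 rose in Low-VCR (median 1.72), and none had an interaction called by edgeR, with 3 at an unadjusted p under 0.05 and a list median of -0.29. Scores overlapped, at 6.41 to 7 in VCR and 6.27 to 6.54 in Low-VCR. Mitochondrially encoded genes had medians of 1.52 and 1.36, with 0 of 13 called by edgeR and 2 at an unadjusted p under 0.05. Tubulins, the targets of the drug, had 0 of 17 called by edgeR and 2 at an unadjusted p under 0.05. Their median change was -0.57 in both responses, while their median interaction was 0.28, with 10 of 17 above 0 and 7 below. Drug efflux and metabolism genes had 0 of 10 called by edgeR and 3 at an unadjusted p under 0.05, with a median interaction of 0.01. For p53 targets it was 0 of 24 by edgeR with 4 at an unadjusted p under 0.05, and for core apoptosis genes 0 of 23 with 1. The median interaction was -0.33 for p53 targets, with 20 of 24 below 0. It was -0.3 for core apoptosis genes, with 16 of 23 below 0. DESeq2 was run over all genes and its calls are not given by list.

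A few genes had responses of opposite direction. Mki67, the proliferation marker Ki-67, fell by 0.4 in VCR (edgeR adjusted p = 0.0203) and rose by 0.4 in Low-VCR (edgeR adjusted p = 0.0318). It was at 58.8, 60.6, 70.2 and 92.8 CPM in VCR and 74.8 to 119 CPM in Low-VCR, with overlap through VCR 4 and Low-VCR 4. Its interaction was 0.81 ± 0.21 (edgeR adjusted p = 0.0425). Part of that size came from the undrugged side, where ALL (72.9 to 77.3 CPM) lay below NC (83.1 to 104 CPM). Mki67 was the single call among 24 spindle and checkpoint genes, a share near the 3.81% of genes tested. Of the 24, 23 had an interaction above 0. Vamp5, a membrane fusion protein of muscle, went the other way, with 0.58 in VCR and -0.51 in Low-VCR (interaction -1.09 ± 0.28, edgeR adjusted p = 0.0414). Insig2, a brake on sterol synthesis, had a change of 0.46 in VCR (edgeR adjusted p = 0.0673) and fell by 0.73 in Low-VCR. Both were chosen after their values were seen. Hspa12a, a divergent member of the heat shock protein family, rose by 1.27 in VCR and had -0.18 ± 0.2 in Low-VCR. It was at 15.6 to 32.9 CPM in VCR and 7.82 to 11.9 CPM in Low-VCR, and its interaction was -1.46 ± 0.28 (edgeR adjusted p = 0.0261).

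Over all libraries edgeR called no gene with a larger response in Low-VCR. Of 2462 genes whose interaction had the sign of their VCR change, 62 had an unadjusted p under 0.05 (2.52%), and the smallest edgeR adjusted p was 0.0533. Of the 14072 others 4226 did (30%). Among genes of at least 5 CPM the nearest was Myl6b, a myosin light chain, at 31.9 to 37.4 CPM in Low-VCR and 25.6 to 29 in VCR (0.5 ± 0.15, edgeR adjusted p = 0.0582). Dmrt1, the transcription factor that keeps Sertoli cells male and also acts in spermatogonia, was at 23.1 to 24.6 CPM in ALL and 27.4 to 30.7 in NC, and at 50.5 to 61.4 CPM in Low-VCR and 42 to 56.1 in VCR. The drugged groups overlapped and the undrugged ones did not. Its interaction was 0.46 ± 0.15 (edgeR adjusted p = 0.0671). Rhox5, an androgen-regulated homeobox gene of Sertoli cells, had 0.72 ± 0.23 (edgeR adjusted p = 0.0701). Over the alternatives the adjusted p ran from 0.0422 to 0.353 for Myl6b, from 0.0415 to 0.368 for Dmrt1 and from 0.0356 to 0.353 for Rhox5, so each passed in at least 1 of them.

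A further comparison, added after the data were seen, asked which genes left the common slope, with the VCR change multiplied by 0.54. It called 16 genes, all above 0, of which Btbd35f15 was also among the 839. Dmrt1 led with 0.8 ± 0.12 (edgeR adjusted p = 0.0229). Rhox5 had 1.16 ± 0.19 (edgeR adjusted p = 0.0319) and Fshr, the Sertoli cell receptor for follicle-stimulating hormone, 1.19 ± 0.21 (edgeR adjusted p = 0.0372). Dmrt1 had a change of 0.75 in VCR and 1.2 in Low-VCR, and Rhox5 0.94 and 1.67. The slope was taken from the same genes, so it carries the direction of most of them. The intercept of that line, 0.22, was left out, so a gene on the line scores above 0. Genes that rose at least 2-fold had a median ratio of 0.74 or 0.79, by the side they were chosen on, which is above the slope. Rising genes thus tend to score above 0 by the set-up, and the common sign of the 16 calls is a description.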

How the data were processed

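Testis RNA was sequenced from poly(A)-selected directional libraries, per the labels' protocols. The authors' deposited table lists raw counts, 1 row for each gene symbol. The tools named are DESeq2 1.36.0, Subread 2.0.3 with featureCounts, STAR 2.7.10b and Trimmomatic 0.39, and the genome is GRCm39, per the submitters' processing notes. The annotation, the strand setting and the treatment of human reads are not given in the sources used here. Reads of near-identical copies or overlapping genes may be divided by that counting.

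The analysis used edgeR 4.0.16 in R 4.3.3 (limma 3.58.1 and DESeq2 1.42.0 in alternatives). Of 22066 symbols, 1207 had no count and 16534 passed filterByExpr (minimum count 10). A robust quasi-likelihood fit with TMM scaling of 5 group means over all 20 libraries left 15 residual degrees of freedom, and contrasts of it gave each comparison. All groups share 1 estimate of the spread. Standard errors come from the log2 change and the F statistic. CPM values are TMM-scaled. The code was tested on simulated data: with an interaction of 1 on the log2 scale 16% of changed genes were called, and with 2, 78%. The step ran on 16337 genes, and 6 unchanged genes were called. The simulation gave each gene the same spread in all groups, and changed genes averaged at least 5 CPM. The real groups differ in spread, so these rates check the code and do not give the share found in these data.

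Samples were grouped by their titles. Whether each library is its own mouse is not stated, and p-values then reflect only how far these samples spread. The genes, the 45 lists and the rule for named genes were chosen with earlier results of these data known. The rule took Tssk4 and Ccdc159. Among called genes of at least 5 CPM it took the 8 highest and 8 lowest interactions, the 6 smallest p of each sign, and the 6 nearest to a call with a larger response. It also took the 2 smallest p of each list. Symbols of clones and gene models, Y-linked genes and Xist are left unnamed, and 1 gene of the rule is not reported here. A group at 0 was bounded by 3 counts summed over the group, which are 0.197 to 0.365 CPM in 1 library of these groups. Alternatives were other scalings, filters, tests and sets of libraries, each replicate left out, and a replicate block. Promoters came from RefSeq (GRCm38.p6).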

Additional observations from a re-analysis of the deposited data

Results flagged for a closer look

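The number of genes whose vincristine response differed between engrafted and other mice, 839, is itself a difference between groups under the same contrast, tested by the interaction. In groups of 4 libraries a lone value was looked for in library totals, mitochondrial shares, cell-type list scores and named genes, and 21 were found in 228 groups. Chance gives about 1 in 20.

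In VCR, library 1 stood alone below the others for the scores of round spermatids (1.22, others 4.46 to 5.11), the testis-specific serine kinases and substrate (0.61, others 4.78 to 5.55) and epididymis genes (-0.74, others 1.39 to 1.76). Cldn34b2 was at 0 CPM in VCR 1 and 0.131 to 0.152 in the others. In the opposite direction, Btbd35f15 had 0.0759 CPM in VCR 2, Pacs2 3.8 in VCR 3 and Zscan10 0.59 in VCR 3, with the other VCR libraries at 0.

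In Low-VCR, library 2 was low for the Leydig score (7.15, others 7.45 to 7.5) and for Laptm5 (10 CPM, others 15.2 to 16.2). In NC, library 1 was apart for Serpinb9b (11.3 CPM, others 9.69 to 9.83), Serpina3n (0.487, others 1.43 to 1.51) and Dmrt1 (27.4, others 30.2 to 30.7). Spam1 in NC 4 was at 26.4 CPM (others 32.5 to 33.5) and Ppa1 in NC 3 at 39.8 (others 42.3 to 42.8).

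In ALL, library 1 was apart for Ica1 (67.8 CPM, others 58.8 to 59.1), Laptm5 (4.03, others 3.61 to 3.64), the serine kinase score (8.25, others 8.14 to 8.15) and the piRNA pathway score (6.48, others 6.73 to 6.76). ALL 2 was high for the Sertoli score (4.9, others 4.74 to 4.76) and the T and natural killer cell score (1.95, others 1.48 to 1.55), and ALL 4 for the adipocyte score (1.24, others 0.36 to 0.47).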

How the results depend on the processing

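All 839 called genes kept the sign of their interaction in every alternative that tested them, but most did not keep the call. Genes called in total, above and below 0 were 513, 319 and 194 with library size alone, 1004, 612 and 392 with upper-quartile scaling, 59, 39 and 20 scaled to Sertoli genes, 692, 569 and 123 with no filter, 1868, 1236 and 632 with DESeq2, 243, 202 and 41 with limma voom, 1757, 1398 and 359 with voom quality weights by group, 346, 258 and 88 with library-number range as a term, and 2145, 1422 and 723 at an adjusted p under 0.1. With only the engrafted libraries of the lower number range they were 0, 0 and 0 (2356 at an unadjusted p under 0.05), and with those of the upper range 1, 1 and 0. Each range holds 2 libraries per engrafted group. The library-number term set only the upper range apart, so that fit does not separate engraftment from number range. Against the slope-scaled response 16 were called. The share above 0 was 75.1%, 62.2% with library size, 61% with upper-quartile scaling and 66.1% scaled to Sertoli genes. Those scalings put the median of all genes at -0.1, -0.14 and 0.23 (0.04 as reported).

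Replicate numbers do not pair the samples: correlations of same-numbered deviations ran from -0.16 to 0.03. A fit with the replicate block called 9 genes, 7 above 0 and 2 below. Leaving out 1 library gave 7 to 2322 calls, 6 to 1605 above 0 and 1 to 717 below, and 12127 to 13219 between VCR and NC, 7358 to 10487 between Low-VCR and ALL, 2483 to 6975 between Low-VCR and VCR, and 0% to 0.012% of genes tested between ALL and NC. Low-VCR against ALL gave 13864 scaled to Sertoli genes, 3957 and 4794 in the lower and upper number range, and 4744 at 2-fold or more. Low-VCR against VCR gave 3215 scaled to Sertoli genes, 2616 with voom quality weights, 1131 and 1 in the lower and upper range, and 2379 at 2-fold. ALL against NC called 0.0242% of genes tested scaled to Sertoli genes, 0.115% with DESeq2, 0.683% with voom quality weights, 0.012% in the lower range and 0.00605% at an adjusted p under 0.1. The cause of these shifts was not tested.

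Medians of weakly moved lists changed sign. Scaled to Sertoli genes they became 0.05 for undifferentiated spermatogonia, 0.16 for NF-kappa B genes, 0.18 for heat shock genes, 0.07 for the integrated stress response, 0.05 for glucocorticoid-induced genes and 0.03 for nuclear respiratory chain genes. Undifferentiated spermatogonia had 0.11 with no filter and 0 in the upper number range, neutrophil genes 0.15 in the lower and 0.17 in the upper range, immediate early genes 0.19 in the upper range, and heat shock genes -0.07 to 0.05 when 1 library was left out. Over all alternatives the median ran from -0.18 to 0.25 for vincristine efflux genes, from -0.43 to 0.51 for adipocyte genes and from -0.31 to 0.13 for mitochondrially encoded genes. With depths of 9.43 to 15 M counts, genes under about 1 CPM in VCR rest on few counts.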

Other observations

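Families read from gene symbols after the values were seen showed where calls gathered. Of 10 tested claudin-34 genes 5 were called above 0 (50%), of 4 Izumo genes 2, of 8 Spaca genes 3 and of 42 Tex genes 6, against 3.81% of all genes tested. Among 55 olfactory receptor genes 5 were called above 0 and 1 below, with a median change of -1.3 in VCR and -0.51 in Low-VCR, and among 38 vomeronasal receptor genes 5 were called above 0. Genes with clone or model names made up 126 of the 630 calls above 0 and 1 of the 209 below 0, against 4.58% of genes tested. Serpins had 4 of 32 called above 0 and 3 below, against 3.81% and 1.26% of genes tested.

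Genes called above 0 took 3.89% of counts in NC, 3.64% in ALL, 1% in VCR and 2.43% in Low-VCR. Genes called below 0 took 0.272%, 0.336%, 1.96% and 0.904%.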
